A study of Mus musculus with 6 samples.

Results

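BORG-expressing D2.OR cells were compared with parental D2.OR cells, gene by gene, on 4 of the 6 Affymetrix GeneChip Mouse Gene 2.0 ST arrays of the study. Every transcript cluster (a group of probes summarized as 1 value) that the platform annotation pairs with exactly 1 gene symbol was taken, and a gene with several such clusters was represented by its brightest one. In this way 22180 genes were obtained from 41345 transcript clusters. D2.OR cells are a mouse mammary tumor line of the D2.HAN series that can disseminate from a tumor and then tends to stay latent. The parental group (2 arrays) carried an empty vector and the BORG group (2 arrays) carried the BORG transcript, both as stable lines obtained under G418, from cells engineered to produce firefly luciferase under zeocin. All arrays used total RNA of cells recovered after 7 days of 3D-culture on a cushion of Cultrex, a basement membrane extract. The remaining group of 2 arrays, BORG/sgTRIM28 cells, contributed only to the estimate of the spread. The sources used here do not give whether a stable line was a pool or a clone, and with 1 line per group, the line and BORG cannot be told apart. Whether the parental and BORG lines carried a control guide RNA is not stated in the sample labels. The labels call the 2 arrays of a group biological replicates without naming separate cultures, so the p-values measure the spread between these arrays.

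BORG is a long noncoding RNA first described as a transcript that responds to bone morphogenetic protein, and it binds TRIM28, a scaffold that brings silencing enzymes to chromatin. Disseminated tumor cells that stop dividing are called latent or dormant, and contact with the basement membrane, growth factor signals and the supply of oxygen and nutrients are all known to bear on whether such cells divide. RefSeq lists Borg as another name of Gm45924, to which no transcript cluster used here was annotated, so the level of BORG itself was not analysed here. Trim28, its protein partner, had a lower signal in BORG cells (log2 change -0.67). This fall passed the adjusted threshold given below with all arrays, but not when any single parental or BORG array was left out. Cdkn1a, a cell cycle inhibitor and one of the genes assayed in the study, read 9.28 and 9.41 on the parental arrays and 9.22 and 10.24 on the BORG arrays. Those arrays overlapped, and the log2 change of 0.39 had an adjusted p of 0.577 from limma.

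At an adjusted p under 0.05 in limma (Benjamini-Hochberg over all clusters), hereafter the test, 1276 of 22180 genes were higher in BORG cells, which is 5.75% of all genes, and 876 were lower, or 3.95%. With another pair of thresholds, an unadjusted p under 0.05 and a fold of 2 or more, 655 genes were higher (2.95%) and 242 were lower (1.09%). Rises were larger than falls. Among genes past the test, 613 rose and 198 fell by at least 2-fold, and 34 rose and 3 fell by at least 8-fold. The median log2 change was 0.97 for genes that rose, -0.77 for genes that fell and -0.029 over all genes. The 2 BORG arrays lay further apart than the 2 parental arrays, with a median absolute difference of 0.159 against 0.107. Their signals were more than 1 log2 unit apart for 159 genes, of which 113 were lower on BORG replicate 1 and 46 were lower on BORG replicate 2, against 18 such genes for the parental arrays. The 2 BORG arrays lay above both parental arrays in 5474 of the 22180 genes and below both in 6802. A gap between the groups was thus common and does not mark a change by itself. Of the 2152 genes past the test, 2063 were among the 12195 genes above the median signal of all clusters. Gene lists were not matched to all genes by signal, so the shares of all genes run low for lists of brighter genes. The number of arrays limits the precision. Without parental replicate 1 or 2 the test passed 345 or 350 genes, without BORG replicate 1 it passed 808, and without BORG replicate 2 it passed 2413. No gene that passed the test with all arrays and passed it again without one of them changed direction. Of 250 genes chosen for naming, 246 passed the test with all arrays, and 136, 135, 75 and 21 of the 250 lost it without parental replicate 1, parental replicate 2, BORG replicate 1 and BORG replicate 2.

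**Figure D1:**
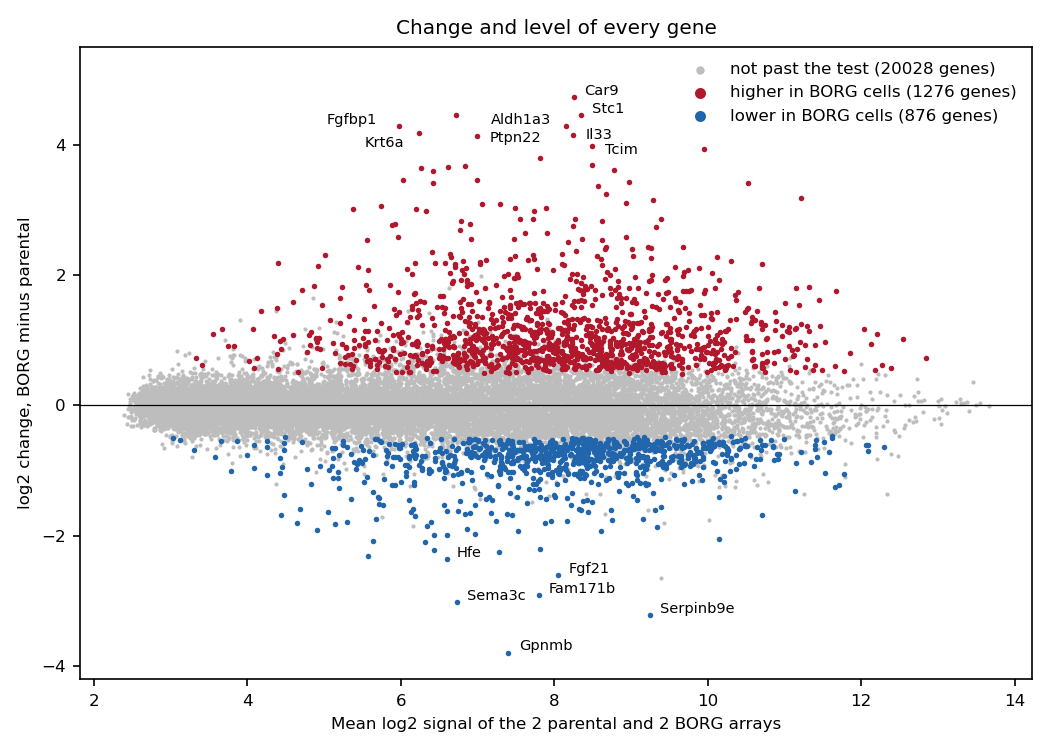
Log2 change of each gene in BORG against parental cells (vertical axis) over the mean log2 signal of the 2 parental and 2 BORG arrays (horizontal axis), with the 1276 genes that rose in red, the 876 that fell in blue and the 20028 that did not pass the test in grey. Rises reach further from 0 than falls, and both occur over the range of signal.

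The RNA came from a cell line, and markers of mammary epithelium and of other cell types were read on each array. Of 21 leukocyte markers, 0 passed the test in either direction, and their mean log2 signal was 4.84 and 4.81 on the parental arrays and 4.71 and 4.75 on the BORG arrays. Ptprc, the common leukocyte antigen, read 3.59 and 3.48 against 3.61 and 3.39, and single genes given in this form have the values of the parental arrays first and of the BORG arrays second. The mean of 14 fibroblast markers lay between 5.61 and 5.65 on the 4 arrays, although Col1a1 (log2 change 1.18) and Pdgfrb (1.13) rose and Pdgfra fell (-1.25). The 13 mammary epithelial markers had a mean of 6.27 and 6.31 on the parental arrays and 6.73 and 6.64 on the BORG arrays, and 3 of them rose, namely Krt18, Krt14 and Krt8. Of the epithelial adhesion markers, Cdh1 read 6.60 and 6.19 on the parental and 6.50 and 6.34 on the BORG arrays, while Epcam read 4.68 and 4.68 against 4.84 and 4.75, and the groups overlapped for Cdh1 only. Neither passed the test, and Epcam stayed below the array medians, which lay between 5.18 and 5.24, on all 4 arrays. In bulk RNA, fewer cells of a kind and less RNA in each cell cannot be told apart.

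The 15 largest rises, between 3.62 and 4.74 on the log2 scale with n = 2 arrays per group, were in genes of unlike function. Ptpn22, a tyrosine phosphatase best known from lymphocytes, had a log2 signal of 4.94 and 4.91 in parental and 9.38 and 8.75 in BORG cells on the respective arrays. It rose by 4.14 (SE 0.21, adjusted p = 0.000941 from limma), with a wide gap between the groups. Tcim, a small regulator of transcription, read 6.46 and 6.55 in parental and 10.95 and 10.02 in BORG cells and rose by 3.98 (SE 0.29, adjusted p = 0.00207 from limma). A dimmer cluster of Tcim changed by -0.02, so the probes of this gene do not all show the rise. Sema7a, a semaphorin anchored in the membrane, read 5.99 and 5.86 against 9.76 and 9.67 and rose by 3.79 (adjusted p = 0.000708 from limma). Ramp3, an accessory protein that sets which ligand the calcitonin receptor-like receptor binds, rose by 3.69 from 6.56 and 6.73 to 10.51 and 10.16. Other large rises were in Spink5, a protease inhibitor of the epidermis (3.68), Ano1, a calcium-activated chloride channel (3.66), Ppbp, a chemokine known from platelets (3.64), and Adamtsl4, a secreted matrix protein (3.62). In all of these genes both BORG arrays lay above both parental arrays, as the rule by which they were chosen required. Car9, Stc1, Aldh1a3, Fgfbp1, Krt6a, Il33 and Rgs16 completed the 15 largest rises.

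The 15 largest falls were likewise mixed. Fgf21, a hormone whose gene is switched on by amino acid and mitochondrial stress, read 9.24 and 9.47 on the parental arrays but 5.97 and 7.54 on the BORG arrays. The 2 BORG arrays differed widely, although both were lower than the parental ones, and the change was -2.60 (SE 0.47, adjusted p = 0.0298 from limma). Hfe, which restrains iron uptake, read 7.66 and 7.89 against 5.23 and 5.60 and changed by -2.35 (SE 0.16, adjusted p = 0.00187 from limma). Saa3, an acute phase protein, read 6.51 and 6.96 against 4.44 and 4.41 and changed by -2.31. In both, the BORG arrays were close together and well below the parental arrays. Nlrc5, an activator of the genes for major histocompatibility complex class I, fell from 7.48 and 7.70 to 5.64 and 5.58 (-1.98, adjusted p = 0.00135 from limma). Rragd, a GTPase that carries the amino acid signal to the mTOR kinase, changed by -2.10, and Tgfbr3, a co-receptor for transforming growth factor beta, by -2.09. Fam171b (-2.91), the adhesion proteins Igsf11 (-2.20) and Tenm4 (-2.22) and the drug-oxidizing enzyme Fmo1 (-1.99) fell as well. Serpinb9f (-2.25) is a close paralog of Serpinb9e, and the probes of such near copies can share signal, so the change of each is uncertain. A dimmer cluster of Tenm4 changed by -0.18. The other falls among the 15 largest were Gpnmb, Serpinb9e, Sema3c and Slc7a11. Among 143 genes past the test that had further clusters, all other clusters of 114 changed in the same direction, and in 19 another cluster also passed.

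**Figure D2:**
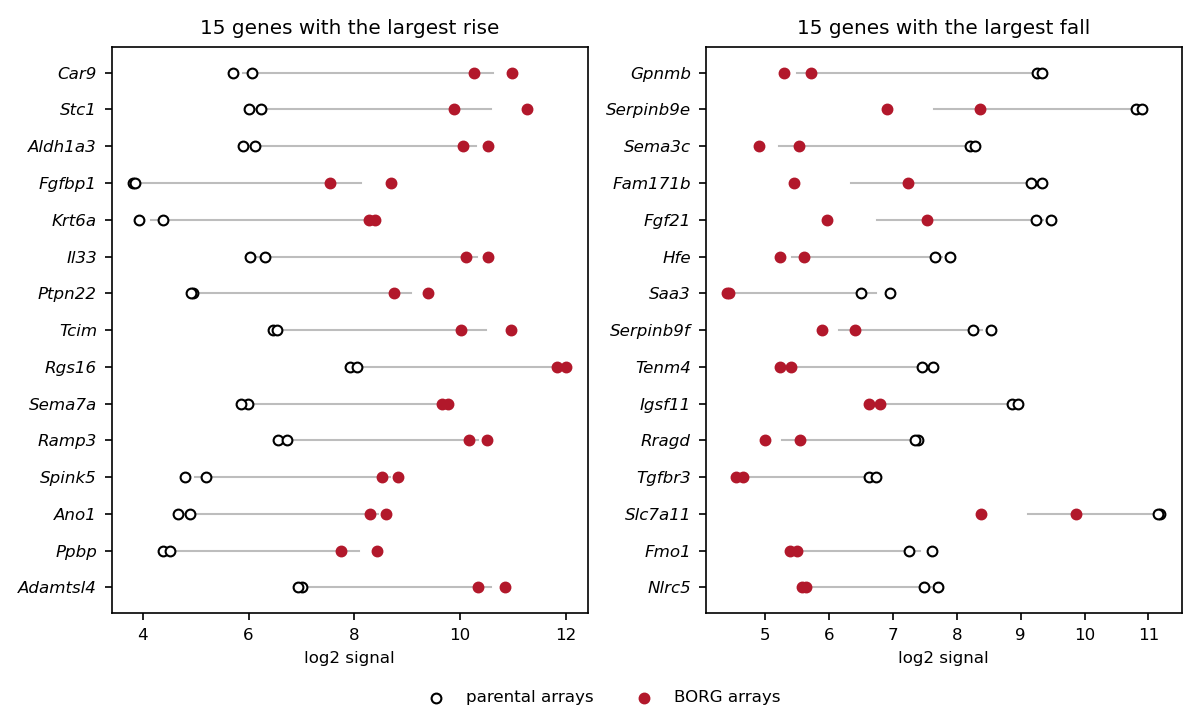
Log2 signal of each parental array (open circles) and BORG array (filled circles) for the 15 genes with the largest rise and the 15 with the largest fall, with a line from the parental mean to the BORG mean. The groups do not overlap in any of the 30 genes, a part of the rule by which they were chosen, and the BORG arrays lie far apart for Serpinb9e, Fam171b, Fgf21 and Slc7a11 among the falls.

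Genes that low oxygen is known to induce were raised in part. The transcription factor HIF-1 consists of an oxygen-controlled subunit encoded by Hif1a and a constant partner. When oxygen is present, EGLN enzymes mark the first subunit and the VHL protein removes it, so that its targets are controlled through the protein far more than through the transcript. Of 25 measured hypoxia-induced genes, 9 rose and 2 fell, against 5.75% and 3.95% of all genes, and their median log2 change was 0.27. Beside Car9, Stc1 and P4ha2, the rises were in Pgf, a placental growth factor of the VEGF family (1.72), the mitophagy receptor Bnip3 (1.70), the collagen prolyl hydroxylase P4ha1 (1.25), Anxa2 (1.19), the carbonic anhydrase Car12 (0.87) and Fam162a (0.85). The demethylase gene Kdm3a (-0.64) and Stc2 (-0.76) fell. Vegfa, a classical target that draws vessels, read 11.48 and 11.52 on the parental and 10.61 and 11.49 on the BORG arrays. The second BORG array matched the parental level, and the difference did not pass the test (log2 change -0.45, adjusted p = 0.418 from limma). With parental replicate 1 or 2 left out, 2 and 3 of these genes rose, and 0 fell.

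Hif1a itself went down. It read 11.80 and 11.79 on the parental arrays and 10.17 and 10.79 on the BORG arrays, and changed by -1.32 (SE 0.20, adjusted p = 0.0191 from limma). Both BORG arrays were lower, at differing levels. Vhl and the asparagine hydroxylase gene Hif1an, whose products restrain HIF-1, fell too, with changes of -0.63 and -0.83, whereas Egln3, for one of the EGLN enzymes, rose by 2.14. A dimmer cluster of Hif1a changed by -0.38. Epas1, which encodes the oxygen-controlled subunit of HIF-2, read 6.33 and 6.33 against 6.38 and 6.24, with no gap between the groups. Without either parental array, 0 of the oxygen sensor genes fell, and without BORG replicate 1, 1 fell.

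To set the changes beside the sequence, the 300 bases from 250 before to 50 after each gene's start in RefSeq (GRCm38.p6) were searched on both strands for ACGTG, the core that HIF-1 is known to bind, which is also part of the E-box CACGTG. It occurred in 13 of the 20 hypoxia-induced genes with a promoter sequence. Of the 10 of these that passed the test, 6 held it, against 21.8% of 27025 genes with a promoter sequence. The list was made of genes known to respond to low oxygen, so a high share can follow from its choice alone. Members that did not pass the test, such as Vegfa and Ddit4, held the core too. A match describes letters only. The promoter of Car9, the member with the largest change that holds the core, is shown with its match in capitals, written on the opposite strand, at base 233 of the window (chr4:43506776-43507075, plus strand).
Car9 promoter: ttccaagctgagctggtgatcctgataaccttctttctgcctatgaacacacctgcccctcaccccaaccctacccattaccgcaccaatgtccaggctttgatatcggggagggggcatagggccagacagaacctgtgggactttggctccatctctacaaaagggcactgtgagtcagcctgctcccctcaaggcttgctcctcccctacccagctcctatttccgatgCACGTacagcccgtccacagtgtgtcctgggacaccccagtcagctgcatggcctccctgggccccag

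Glucose use and sterol synthesis moved upward in part of their steps. Of 18 genes for glucose uptake and glycolysis, 5 rose and 0 fell, against 5.75% and 3.95% of all genes (median 0.57). Slc2a1, the main glucose transporter of proliferating cells, read 10.47 and 10.53 in parental and 11.56 and 11.71 in BORG cells. It rose by 1.13 (SE 0.11, adjusted p = 0.00534 from limma). All 3 genes for phosphofructokinase, the enzyme of the committed step, passed the test, with changes of 1.52 for Pfkm, 1.21 for Pfkp and 0.85 for Pfkl. Eno2, an enolase, rose by 1.16. Pgk1 (0.49, adjusted p = 0.0665 from limma) and Ldha (0.57, adjusted p = 0.0753 from limma) missed the threshold. Both BORG arrays lay above both parental arrays in each, as they did in 5474 of 22180 genes. Pdk1, a kinase of pyruvate dehydrogenase, rose by 1.16, and its opponent, the phosphatase gene Pdp1, by 1.02. Of 18 genes of the citric acid cycle, 0 passed the test in either direction (median 0.03). Of the glycolysis genes, 0 rose without parental replicate 1 or 2.

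The sterol pathway had the largest share of risen genes among the 75 hand-written gene lists. All of these lists were chosen with earlier results of these data known, so the rank and the shares are descriptive only. Of 16 enzymes of mevalonate and sterol synthesis, 12 rose and 0 fell, against 5.75% and 3.95% of all genes, and the median change was 1.45. Hmgcs1, which makes the substrate of the mevalonate branch, read 8.81 and 8.94 in parental and 11.09 and 10.16 in BORG cells and rose by 1.75 (SE 0.29, adjusted p = 0.0236 from limma). The BORG arrays were both higher, replicate 1 more so. Further along the path, Fdft1, which joins farnesyl units to squalene, rose by 1.61, Sqle, which oxidizes squalene, by 1.15, Cyp51 by 1.65, Nsdhl by 1.72 and Hsd17b7 by 1.90. Lss, the enzyme that closes the sterol rings between Sqle and Cyp51, did not follow. It read 10.33 and 10.54 on the parental and 10.06 and 10.02 on the BORG arrays, so the BORG arrays were the lower ones, and the change of -0.39 did not pass the test. Mvd read 9.97 and 9.99 against 9.81 and 9.61, and its change of -0.27 did not pass either. Srebf2, the transcription factor known to drive this pathway when sterol is low, rose by 1.20 (adjusted p = 0.0327 from limma). Insig1, which retains it in the endoplasmic reticulum, read 9.92 and 9.91 against 11.28 and 10.36 (adjusted p = 0.134 from limma). Of 19 genes of fatty acid synthesis and desaturation, 3 rose, namely Elovl6, an elongase (1.50), and the desaturases Fads2 (1.11) and Fads1 (1.03), and 0 fell, and with either parental array left out 0 of them rose. Of 21 genes of fatty acid oxidation, 0 rose, 2 fell and 19 did not pass the test, against 5.75% and 3.95% of all genes (median -0.125). The 2 were Ppargc1a, a co-activator of mitochondrial fat oxidation (-1.91), and Cpt1a, the gate for fatty acids into the mitochondrion (-0.80). The median of the sterol enzymes was 1.72 above the parental mean on BORG replicate 1 and 1.17 above it on BORG replicate 2. In the fits without parental replicate 1 or 2, 2 enzymes rose, and without BORG replicate 1 or 2, 11 and 13 rose.

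Part of the genes of protein quality control in the endoplasmic reticulum fell. Of 25 genes of the unfolded protein response and its chaperones, 0 rose and 9 fell, where 5.75% and 3.95% of all genes did so (median -0.41). Hspa5, the main chaperone of that compartment, read 11.57 and 11.59 in parental and 10.82 and 10.91 in BORG cells, and fell by 0.72 (SE 0.11, adjusted p = 0.0163 from limma). Each BORG array was lower than each parental array. Herpud1, which aids the removal of misfolded proteins, fell by 1.23. Derl1, a part of the export channel (-1.08), Creld2 (-0.98), the chaperones Dnajc3 (-0.89) and Hyou1 (-0.83), and Xbp1, the transcription factor of the IRE1 branch (-0.50), fell as well. The list's median was -0.41 on BORG replicate 1 and -0.42 on BORG replicate 2, both relative to the parental mean. If parental replicate 1 or 2 was left out, 1 of these genes fell, and without BORG replicate 1 or 2, 4 and 8 fell.

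In contrast, the targets of ATF4 and CHOP, the transcription factors of the amino acid branch of the stress response, had different levels on the 2 BORG arrays. Their median relative to the parental mean was -1.29 on BORG replicate 1 and -0.28 on BORG replicate 2. Of 26 measured targets, 14 were more than 1 log2 unit apart on the 2 BORG arrays, all 14 lower on replicate 1, which is 53.8% of the list against 0.717% of all genes. Chac1, an enzyme that breaks down glutathione, read 10.93 and 10.97 on the parental arrays and 8.86 and 10.71 on the BORG arrays. Trib3, a pseudokinase that holds back ATF4, read 9.72 and 9.70 against 7.91 and 9.56. Asns, which makes asparagine, read 11.12 and 11.10 against 9.89 and 10.90. In these 3 genes replicate 2 lay just under the parental level and replicate 1 far below it. Atf4 itself read 11.19 and 11.22 against 10.18 and 10.95, and Ddit3, the gene of CHOP, 8.77 and 8.79 against 7.92 and 8.73, and neither passed the test.

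With all arrays, 0 of the 26 targets rose and 4 fell, beside 5.75% and 3.95% of all genes. The 4 were Fgf21, Slc7a11, Atf5 (-1.13) and the amino acid transporter Slc38a2 (-0.70). Without BORG replicate 2, 21 fell, and without BORG replicate 1, 3 fell, so the count depended on which BORG array entered. Cth, which makes cysteine from cystathionine, was chosen after its values were seen, as the gene in grey with the lowest change in the plot of change and level. It read 10.72 and 10.70 in parental and 6.64 and 9.49 in BORG cells, and its change of -2.65 did not pass the test (adjusted p = 0.129 from limma). Snai2, a transcription factor of epithelial-mesenchymal transition, was split in the same way, with 10.87 and 10.91 against 8.21 and 10.06 (change -1.75, adjusted p = 0.128 from limma). BORG replicate 1 was also the lower array in other lists. The aminoacyl-tRNA synthetases, of which 0 of 18 passed the test in either direction, had medians of -0.67 and -0.08 on BORG replicates 1 and 2, and 9 of them fell without BORG replicate 2 but 1 without BORG replicate 1. For 46 genes of ribosome biogenesis, of which 0 rose and 4 fell, these were -0.83 and -0.26, and 29 fell without BORG replicate 2 but 1 without BORG replicate 1. For 41 interferon-stimulated genes, of which 3 rose and 1 fell, the medians were -0.45 and -0.03, and 12 fell without BORG replicate 2 but 1 without BORG replicate 1. The shares of all genes given for the ATF4 and CHOP targets apply to these lists too, and the interferon shares of 7.3% and 2.4% lay near them. The count of all genes past the test also depended on which BORG array entered, as given above. The cause of the difference between the BORG arrays was not tested.

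**Figure D3:**
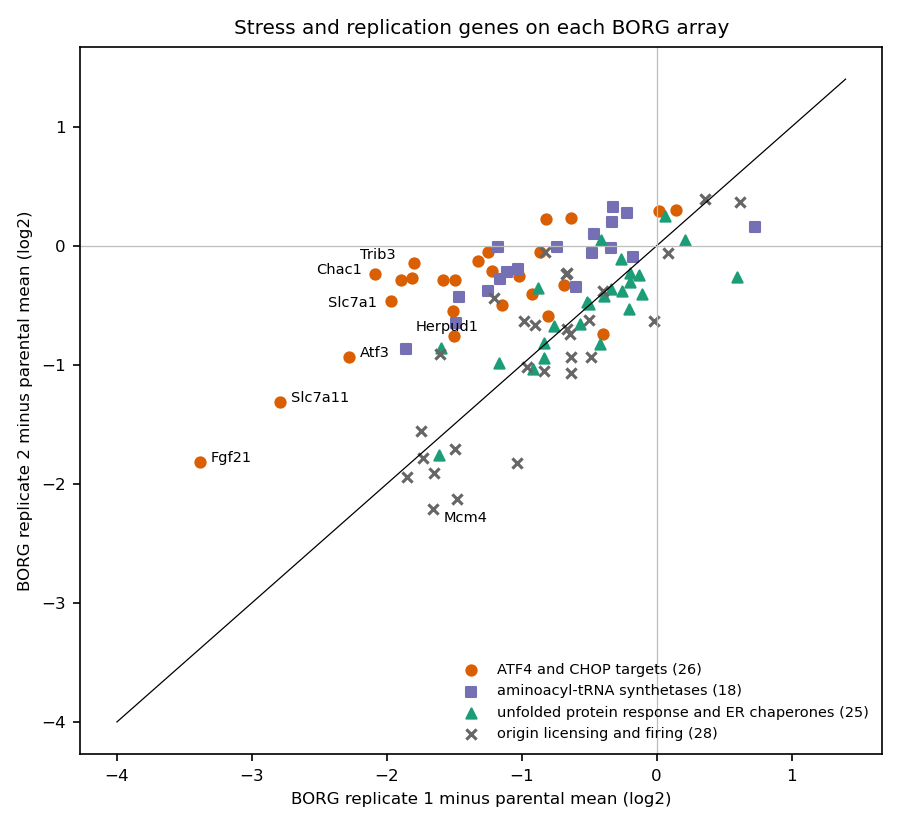
Log2 signal of BORG replicate 1 (horizontal axis) and BORG replicate 2 (vertical axis), each minus the mean of the 2 parental arrays, for the ATF4 and CHOP targets (26 genes), aminoacyl-tRNA synthetases (18), genes of the unfolded protein response (25) and origin licensing genes (28), with a line where both arrays are equal. Most ATF4 and CHOP targets and synthetases lie above the line, lower on replicate 1, while the other groups lie on both sides of it.

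The promoters of both stress groups were searched in the same way. The endoplasmic reticulum stress element is CCAAT followed by 9 bases of any kind and CCACG. It was present in 9 of the 21 genes of the unfolded protein response with a promoter sequence. Of the 7 of these that fell, 3 held it, against 0.137% of all genes with a promoter sequence. TTGCATCA, a motif of the amino acid response that ATF4 binds, was present in 6 of 24 ATF4 and CHOP targets. Of the 4 that fell, 2 held it, against 1.03% of all genes with a promoter sequence. Both lists were made of genes known for these responses, so high shares can follow from their choice alone. Members that did not pass the test held the motifs too, such as Hsp90b1 for the first and Chac1 for the second. For each motif, the promoter of the member with the largest fall that holds it is shown, with the match in capitals. For Creld2 (chr15:88819396-88819695, plus strand) it is written on the opposite strand from base 125 of the window, and for Fgf21 (chr7:45615441-45615740, minus strand) it starts at base 112.
Creld2 promoter: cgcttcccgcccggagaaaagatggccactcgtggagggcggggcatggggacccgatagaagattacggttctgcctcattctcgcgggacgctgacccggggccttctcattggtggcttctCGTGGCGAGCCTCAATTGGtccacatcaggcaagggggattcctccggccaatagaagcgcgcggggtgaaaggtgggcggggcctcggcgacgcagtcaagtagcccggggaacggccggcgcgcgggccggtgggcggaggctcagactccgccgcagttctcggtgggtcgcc
Fgf21 promoter: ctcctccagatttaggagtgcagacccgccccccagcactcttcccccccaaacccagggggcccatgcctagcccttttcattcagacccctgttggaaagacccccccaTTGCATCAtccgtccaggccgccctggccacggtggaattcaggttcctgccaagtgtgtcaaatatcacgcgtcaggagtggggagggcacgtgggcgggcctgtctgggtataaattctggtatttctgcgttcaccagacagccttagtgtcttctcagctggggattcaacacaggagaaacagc

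Most measured genes of replication origins fell, while few genes of mitosis changed, in both directions. Origins of replication are licensed by the loading of the MCM2-7 helicase by ORC, CDC6 and CDT1, and are then fired by kinases and the GINS complex. Of 28 genes of licensing and firing, 0 rose and 18 fell, against 5.75% and 3.95% of all genes, and the median change was -0.80. All 6 helicase subunits fell. Mcm2 read 9.60 and 9.65 on the parental arrays and 7.89 and 7.84 on the BORG arrays, a change of -1.76 (SE 0.11, adjusted p = 0.00157 from limma). The BORG arrays were close together, well below the parental ones. The changes were -1.78 for Mcm3, -1.60 for Mcm7 and -1.43 for Mcm6. The loader genes Cdt1 (-0.69), Orc1 (-0.79) and Orc6 (-0.78) and the firing genes Ticrr (-1.26) and Cdc7 (-0.94) fell. Cdc45, the partner of the helicase at the moving fork, read 7.30 and 7.33 against 6.92 and 6.93, lower on both BORG arrays without passing the test (adjusted p = 0.0805 from limma). Gins2 read 6.40 and 6.27 against 6.42 and 6.27, where the groups overlapped. The list's median was -0.83 on BORG replicate 1 and -0.83 on BORG replicate 2. Without parental replicate 1 or 2, 6 and 5 of its genes fell, and without BORG replicate 1 or 2, 12 and 17.

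TTTNNCGC, a motif that E2F factors bind in genes of DNA replication, occurred in 11 of the 22 licensing genes with a promoter sequence. Of the 15 of these that fell, 9 held it, against 5.93% of all genes with a promoter sequence. Here too a high share can follow from the choice of the list alone, and Orc3 and Gins3, not past the test, held the motif. Cdc6 is shown, as the holder of the motif with the largest fall (chr11:98907901-98908200, plus strand), with the match in capitals, written on the opposite strand from base 113 of the window.
Cdc6 promoter: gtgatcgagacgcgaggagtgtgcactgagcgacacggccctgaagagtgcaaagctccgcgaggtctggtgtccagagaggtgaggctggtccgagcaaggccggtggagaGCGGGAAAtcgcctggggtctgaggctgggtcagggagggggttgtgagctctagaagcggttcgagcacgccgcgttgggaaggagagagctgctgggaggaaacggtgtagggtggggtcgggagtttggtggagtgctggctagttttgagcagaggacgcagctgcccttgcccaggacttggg

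Neighbouring groups of S phase also fell in part. Of 24 genes for DNA polymerases and the clamp, 0 rose and 6 fell, beside 5.75% and 3.95% of all genes (median -0.52), among them the primase subunit Prim1 (-1.40), the single-strand binding protein gene Rpa2 (-1.43) and Pcna, the sliding clamp (-1.07). Pcna read 10.44 and 10.40 in parental and 9.43 and 9.28 in BORG cells, with no overlap. Of 24 genes of nucleotide synthesis, 6 fell (median -0.45), including both ribonucleotide reductase subunits Rrm1 (-0.98) and Rrm2 (-0.82) and the thymidylate synthase Tyms (-1.05). Tk1, the thymidine salvage kinase, rose by 0.90. Of 23 genes of chromatin assembly and maintenance methylation, 12 fell and 0 rose (median -0.57), such as the remodeller Hells (-1.41), the histone chaperone Nasp (-1.16) and Chaf1a (-0.98), which places histones behind the fork. Of 34 genes of homologous recombination and the Fanconi pathway, 9 fell, led by the checkpoint kinase Chek1 (-1.68) and Brca1 (-1.63), and Fance rose (0.65). Leaving out parental replicate 1 or 2 left 1 and 0 falls among the polymerase genes, 0 and 0 in nucleotide synthesis, 1 and 1 in chromatin assembly and 2 and 1 in recombination, and leaving out BORG replicate 1 left 7, 3, 3 and 3. The rises of Tk1 and Fance did not pass without either parental array.

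Of 59 genes of mitosis, by comparison, 5 rose and 4 fell, or 8.5% and 6.8% beside 5.75% and 3.95% of all genes, and the median was 0.08. Only 1 of the 59 had a parental mean under 5, and brighter genes passed the test more often, so these shares are not read as raised. Without parental replicate 1 or 2, 1 of them rose and 0 fell, and without BORG replicate 1, 3 rose and 1 fell. Cdc25b, a phosphatase that starts mitosis, rose by 1.07, and Cdc25a, which acts at the start of S phase, fell by 0.98. Plk4, which duplicates centrioles (-0.68), and the spindle checkpoint gene Mad2l1 (-0.63) fell. Top2a, often read as a marker of dividing cells, had 9.22 and 9.31 on the parental and 9.17 and 9.26 on the BORG arrays, and the groups overlapped. Mki67 read 9.47 and 9.56 against 10.18 and 9.87, higher on both BORG arrays without passing the test (adjusted p = 0.095 from limma). Among the inhibitors of cyclin-dependent kinases, Cdkn2b (0.95), Cdkn2d (1.13) and Cdkn2a (0.73) rose while Cdkn1b fell (-0.52). In the list of such inhibitors and p53 targets, 6 of 38 genes rose and 3 fell, and without parental replicate 1 or 2, 1 and 2 rose and 0 fell.

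**Figure D4:**
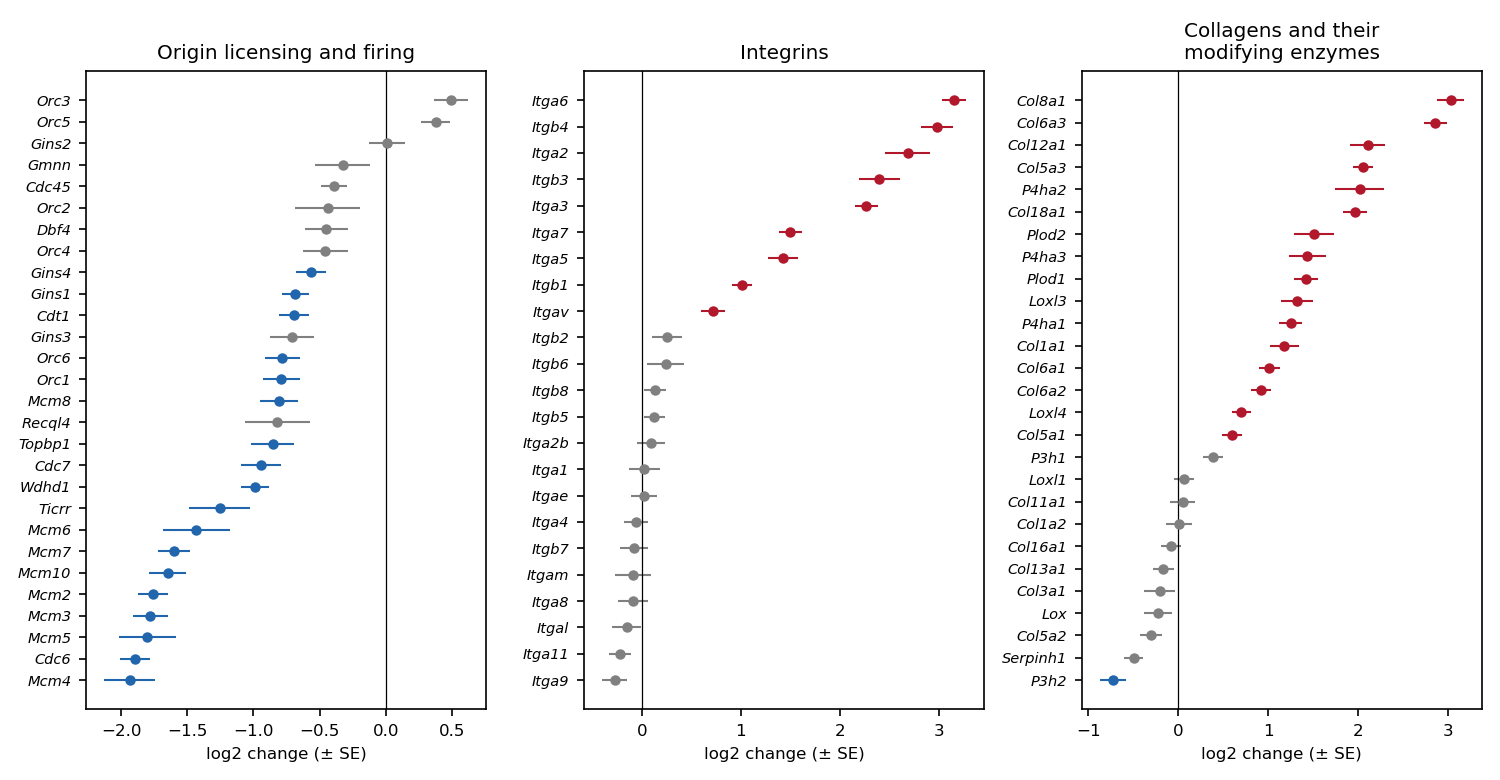
Log2 change with its standard error for each measured gene of origin licensing and firing (28 genes), the integrins (23) and the collagens with their modifying enzymes (27), with genes that rose in red, genes that fell in blue and others in grey. All 18 licensing genes past the test lie below 0, the 9 integrins past the test lie above 0, and of the collagen genes 16 lie above and 1 below.

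Several genes for contact with the basement membrane rose. Integrins are pairs of an alpha and a beta chain that hold cells to the matrix, and the pair of Itga6 with Itgb4 binds laminin-332 at hemidesmosomes. Of 23 integrin genes, 9 rose and 0 fell, against 5.75% and 3.95% of all genes (median 0.13). Itga6 read 7.66 and 7.75 in parental and 10.95 and 10.77 in BORG cells, and rose by 3.16 (SE 0.12, adjusted p = 0.000708 from limma). Itgb4 rose by 2.98 (SE 0.16, adjusted p = 0.000962 from limma). Both BORG arrays were far above both parental arrays in each gene. The collagen receptor chain Itga2 rose by 2.69, the laminin receptor chain Itga3 by 2.27, the vitronectin receptor chains Itgb3 and Itgav by 2.40 and 0.72, the fibronectin receptor chain Itga5 by 1.43, and the shared chain Itgb1 by 1.01. A dimmer cluster of Itgav changed by -0.003. Of the integrins, 6 rose without parental replicate 1 and 6 without parental replicate 2.

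The ligand side changed as well. Of 26 genes of laminins and the basement membrane, 8 rose and 0 fell, against 5.75% and 3.95% of all genes (median 0.09). Lamb3, a chain of laminin-332, read 6.96 and 6.78 on the parental arrays and 9.47 and 9.76 on the BORG arrays, and rose by 2.75 (SE 0.17, adjusted p = 0.0014 from limma). Lama3, another chain of the same laminin, read 5.09 and 5.10 against 7.17 and 7.37, and rose by 2.18 (SE 0.12, adjusted p = 0.000962 from limma). The groups did not overlap in either. Lamb1 and Lamc1, which occur together in other laminins, rose by 1.42 and 1.07, and Col4a5, a chain of the collagen network of basement membranes, by 1.58. Col17a1, the collagen of hemidesmosomes, read 5.33 and 5.34 against 5.67 and 5.69 and did not pass the test (change 0.34). Among 27 fibrillar and other collagens and the enzymes that modify them, 16 rose and 1, P3h2, fell (median 0.92). Col8a1 (3.03), Col6a3 (2.86), Col12a1 (2.11) and Col5a3 (2.05) led the collagens, and the lysyl hydroxylase Plod2 (1.51) led the enzymes after P4ha2. Col3a1 and Col1a2 did not pass, with changes of -0.21 and 0.00. Of the collagen genes, 6 rose without parental replicate 1 or 2, and without BORG replicate 1 or 2, 13 and 15. Of the laminin list, 4 rose without either parental array and 5 without BORG replicate 1.

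Proteases that act on the matrix and their inhibitors rose together in part. Plau, the urokinase that makes plasmin, read 6.88 and 7.22 on the parental and 10.58 and 10.02 on the BORG arrays and rose by 3.25 (SE 0.21, adjusted p = 0.00167 from limma). Its receptor gene Plaur rose by 1.29. Of 26 genes of the plasminogen system and the serpins, 3 rose and 2 fell, against 5.75% and 3.95% of all genes (median 0.08). The lowest of them was the serpin gene Serpinb9e (-3.21). Of 37 matrix metalloproteinases, ADAMs and inhibitors, 9 rose and 0 fell, where 5.75% and 3.95% of all genes did (median 0.26). Adam8, a sheddase, rose by 3.03, the aggrecanase Adamts5 by 1.72, Mmp19 by 1.41 and the membrane-bound Mmp14 by 0.77. The inhibitors Timp1, Timp2 and Timp3 rose by 1.36, 0.92 and 1.32. Without BORG replicate 1 or 2, 4 and 12 of these genes rose, and without parental replicate 1 or 2, 2 and 3.

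Some keratins and genes of stratified epithelium rose, beside part of the genes of the mesenchymal state. Of 18 keratins, 6 rose and 0 fell, against 5.75% and 3.95% of all genes (median 0.30). Krt20, a keratin of differentiated gut and urothelial cells, read 4.35 and 4.25 in parental and 8.21 and 7.32 in BORG cells and rose by 3.47 (SE 0.30, adjusted p = 0.00331 from limma). Krt16, a keratin of activated epidermis, rose by 2.20, the basal keratin Krt14 by 1.32, and the simple-epithelial pair Krt8 and Krt18 by 1.31 and 1.49. No array of one group reached the other in these genes. Of 34 genes of the cornified envelope and the S100 family, 12 rose and 1 fell (median 0.12), with the kallikrein Klk10 (2.82), S100a6 (1.80) and S100a4 (1.80) foremost, while the transglutaminase Tgm3 fell (-1.70). Of 46 junction genes, 6 rose, including the tight junction gene Cldn1 (2.78) and the desmosomal genes Pkp1 (1.70), Dsg3 (1.53) and Dsp (1.34), and 3 fell, among them Tjp1 (-0.63). Of 24 transcription factors and markers of epithelial-mesenchymal transition, 9 rose and 0 fell (median 0.38), and 10 had a change below 0, Snai2 the lowest. Zeb1, a repressor of epithelial genes, rose by 1.38, Vim by 0.73 and the matrix protein gene Tnc by 2.36. Prom1, a glycoprotein of membrane protrusions, rose by 2.18 and Cd44 by 1.20, while the luminal factor Foxa1 fell by 0.74. Of the cornified envelope list, 6 and 4 genes rose without parental replicate 1 or 2, of the junction list 3 and 3, and of the mesenchymal list 2 and 3. The falls among the junction genes numbered 0 without either parental array or BORG replicate 1.

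**Figure D5:**
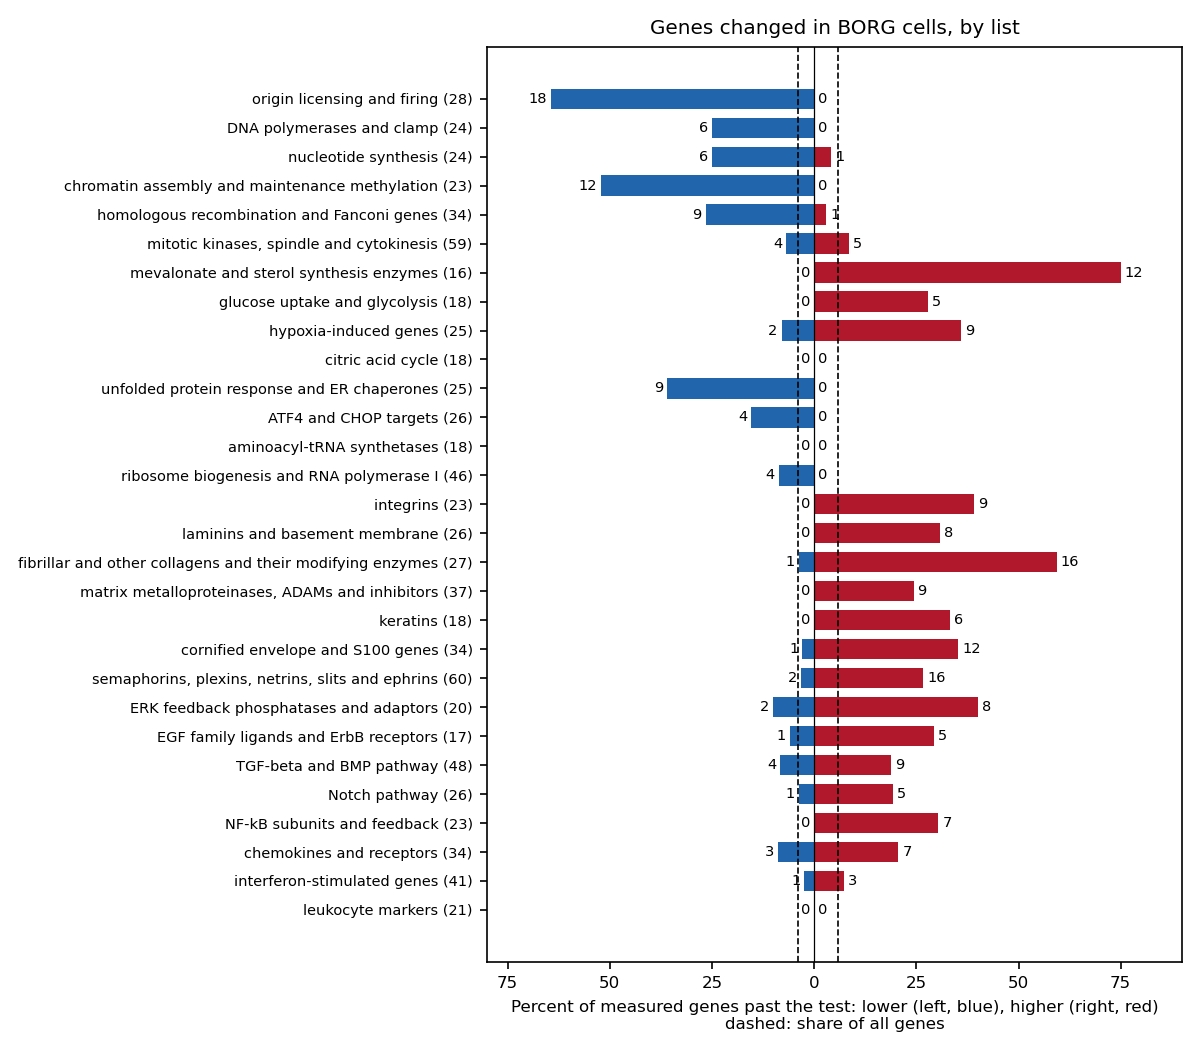
Share of the measured genes of each list that fell (left, blue) or rose (right, red) in BORG cells, in percent, with the number of genes at each bar, the number measured in parentheses and dashed lines at the share of all genes that fell (3.95%) and rose (5.75%). The sterol enzymes and collagens have the widest bars to the right, and the licensing genes and chromatin assembly genes the widest to the left.

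Genes of growth factor signalling rose among ligands, receptors and feedback inhibitors. ERK, the last kinase of the RAS pathway, is known to switch on the SPRY, SPRED and DUSP genes, whose products hold the same pathway back. A list of 20 feedback genes held these and Errfi1, Lrig1 and Lrig3, for inhibitors that act at growth factor receptors, and of the 20, 8 rose and 2 fell, against 5.75% and 3.95% of all genes (median 0.51). Spry2 read 7.52 and 7.65 on the parental arrays and 8.95 and 9.25 on the BORG arrays, a rise of 1.51 (SE 0.15, adjusted p = 0.00448 from limma), with no overlap. Spry4 rose by 1.11 and Spred3 by 1.78, whereas Dusp4 (-0.77) and Dusp16 (-1.19) fell. A dimmer cluster of Dusp6 changed by 0.29. Of 31 early response factors, 10 rose and 1 fell, although the median was 0.01, with Etv5 (1.48) and Etv4 (1.07), known targets of fibroblast growth factor signals, among those that rose. Another cluster of Etv5, dimmer than the one used, changed by -0.20, so the probes of this gene disagree. Junb, an AP-1 subunit, read 9.78 and 9.95 against 9.86 and 9.89, where the groups overlapped. Upstream, of 17 genes of the EGF family and its receptors, 5 rose and 1, Rhbdf2, fell (-0.62). Btc, a ligand of EGFR, read 6.58 and 6.60 in parental and 9.39 and 9.08 in BORG cells and rose by 2.65 (adjusted p = 0.00162 from limma). Nrg1, a ligand of ERBB3 and ERBB4, rose by 1.63, and the receptors Egfr and Erbb2 by 1.14 and 1.05. Of 30 genes for RAS, RAF and MAP kinases and their regulators, 8 rose and 0 fell, with Map2k6 and Map2k3, the kinases that activate p38, at 1.85 and 1.11, and 0 rose without parental replicate 1 or 2. Without parental replicate 1 or 2, 4 of the feedback genes rose, and without BORG replicate 1 or 2, 5 and 6. Of the early response factors, 4 and 3 rose without parental replicate 1 or 2, and of the EGF family list 3 and 3.

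The Notch list held a ligand and several known targets among its risen genes. Of 26 measured genes, 5 rose and 1 fell, beside 5.75% and 3.95% of all genes (median 0.33). Dll4, a ligand best known from vessels, read 5.22 and 5.30 on the parental arrays and 9.25 and 8.18 on the BORG arrays and rose by 3.46 (SE 0.39, adjusted p = 0.0077 from limma). The targets Hey1, Nrarp and Hey2 rose by 2.02, 1.91 and 1.20, and the receptor Notch3 by 0.98. Both BORG arrays exceeded both parental arrays in each of these. Hes1, another target, read 8.79 and 8.87 against 8.83 and 8.52, with overlap, and the co-activator gene Maml1 fell by 0.75. Of 48 genes of the TGF-beta and BMP pathway, 9 rose and 4 fell (median 0.04). The ligand Tgfb1 rose by 1.31, its receptor Tgfbr2 by 1.04, the signal carrier Smad3 by 0.69 and the secreted inhibitors Fst and Fstl3 by 1.32 and 1.18. Id2 (-0.91) and Id3 (-0.96), targets that BMP is known to induce, fell. Id3 read 9.96 and 9.92 in parental and 8.88 and 9.07 in BORG cells, with both BORG arrays lower. Id1 was lower on both BORG arrays without passing the test (8.84 and 8.83 against 8.37 and 8.53). Of 47 Wnt pathway genes, 5 rose and 0 fell (median -0.02), or 10.6% higher beside 5.75% of all genes, including the receptor Ror1 (1.63) and its ligand Wnt5a (0.89). Rises without parental replicate 1 or 2 numbered 3 and 2 for the Notch list, 0 and 1 for the TGF-beta list and 0 and 1 for the Wnt list, and without BORG replicate 1 they numbered 5, 3 and 0. Falls in the TGF-beta list numbered 1 without parental replicate 1 or 2, and Maml1 did not pass without either.

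Guidance molecules, which steer growing axons and vessels, rose in part, among ligands and receptors. Of 60 semaphorins, plexins, netrins, slits and ephrins, 16 rose and 2 fell, where 5.75% and 3.95% of all genes did so (median 0.16). After Sema7a, the secreted repellent Slit2 (2.32), Sema4b (1.91) and Sema5a (1.72) rose most among ligands, and the receptors Nrp1 (1.58), Nrp2 (0.97), Epha2 (1.18) and Plxna1 (0.81) also rose. Slit2 read 6.56 and 6.58 on the parental and 8.99 and 8.78 on the BORG arrays, which did not overlap. S1pr1, a receptor for the lipid sphingosine-1-phosphate, rose by 2.29, and the purine receptor P2ry2 by 1.68. Of the guidance genes, 5 and 6 rose without parental replicate 1 or 2, and 10 without BORG replicate 1.

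Cytokine genes moved in both directions. Among 56 interleukins, colony-stimulating factors and members of the TNF family with their receptors, 8 rose and 5 fell, against 5.75% and 3.95% of all genes (median 0.04). Il18rap, a subunit of the interleukin-18 receptor, read 4.83 and 4.42 in parental and 8.33 and 8.11 in BORG cells and rose by 3.60 (SE 0.17, adjusted p = 0.000739 from limma). Il34, a ligand of the macrophage growth factor receptor, rose by 2.65, and the costimulatory receptor Tnfrsf9 by 2.86. Il6 read 8.86 and 8.89 against 7.20 and 7.71 and fell by 1.42 (SE 0.18, adjusted p = 0.0111 from limma), with both BORG arrays below the parental ones. Genes for receptors of the same cytokine family fell beside it, namely Il6ra (-1.41) and Osmr, which receives oncostatin M (-1.53). Of 34 chemokines and receptors, 7 rose and 3 fell (median -0.03). Ligands of the neutrophil receptor Cxcr2 rose, with changes of 2.21 for Cxcl3, 1.12 for Cxcl1 and 0.98 for Cxcl5 beside Ppbp, and the monocyte attractants Ccl2 (-1.94) and Ccl7 (-1.04) fell. Ccl2 read 8.68 and 8.32 on the parental and 6.31 and 6.82 on the BORG arrays. Of 23 genes of NF-kB and its feedback, 7 rose and 0 fell (median 0.31), led by the deubiquitinase Tnfaip3 (1.29). Rises without parental replicate 1 or 2 numbered 4 and 4 for the interleukin list, 3 and 3 for the chemokines and 1 and 1 for NF-kB, and without BORG replicate 1 they numbered 6, 4 and 5. Falls without parental replicate 1 or 2 numbered 2 and 2 for the interleukin list and 0 and 1 for the chemokines.

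Antigen presentation went lower in part. Of 21 genes of class I presentation, 1 rose and 4 fell, beside 5.75% and 3.95% of all genes (median -0.14). Psmb8, a subunit of the immunoproteasome, fell by 1.30. Erap1, which trims peptides (-0.77), and H2-Q4 (-1.09) fell too, and a dimmer cluster of H2-Q4 changed by -0.07. Class I genes are near copies of each other, so the value of H2-Q4 is uncertain. H2-T23 rose by 0.86. Of 30 checkpoint and surface ligand genes, 6 rose and 1 fell, including the inhibitory receptors Tigit (2.54) and Havcr2 (1.83) and the ligands Cd276 (1.45) and Cd200 (1.36) among those that rose, and Sirpa (-1.67) as the one that fell. Tigit and Havcr2 are best known from lymphocytes. Of 21 leukocyte markers, 0 passed the test, but 15 of them had a parental mean under 5, and the source of the Tigit and Havcr2 signal was not tested. Of 37 genes of the BCL2 family, caspases and IAPs, 7 rose and 4 fell. The survival genes Bcl2l1 and Mcl1 rose by 1.17 and 0.71, the death genes Bcl2l11 (-1.21) and Casp1 (-1.05) fell, and Casp8 and Bok, which promote cell death, rose by 1.06 and 1.00. Oxidant defence was divided, with 5 of 29 genes higher and 5 lower. Nqo1, a quinone reductase, rose by 2.74, and Mgst1 (-1.60) and Hmox1 (-0.90) fell. Of 18 genes of metal handling, 2 rose, the metallothionein Mt2 (0.57) and the metalloreductase Steap2 (0.66), and 3 fell, namely Tfrc, the transferrin receptor (-1.45), Lcn2, which binds bacterial iron carriers (-1.64), and the copper-carrying ferroxidase Cp (-0.59). Without either parental array 0 of these 18 rose or fell. Without parental replicate 1 or 2, 1 and 2 genes of class I presentation fell, 3 and 3 surface ligand genes rose, and 0 and 1 genes of the BCL2 list and 2 and 2 of the oxidant list rose. Falls then numbered 0 and 0 in the BCL2 list and 2 and 2 in the oxidant list.

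MicroRNA genes formed a group of 483 measured genes, of which 15 rose and 3 fell, with a median of -0.01. The group was formed by symbol and also holds microRNA host genes, such as Mir100hg and Mir99ahg, which did not pass the test. The shares that rose and fell lie under the 5.75% and 3.95% of all genes, a comparison in which signal was not matched. These genes were chosen for description after their values were seen. The array reports 1 value per gene, in which the hairpin, a longer host transcript and the mature arms cannot be told apart. Mir205 and Mir221 had the largest rises and Mir708 the largest fall, and both mature arms of each are shown from RefSeq (GRCm38.p6) with the seed, bases 2 to 8, in capitals. The 5p arms lie at chr1:193507503-193507524 (minus strand) for Mir205, chrX:19146344-19146369 (minus strand) for Mir221 and chr7:96249450-96249472 (plus strand) for Mir708. No seed was shared between these arms.
mmu-miR-205-5p: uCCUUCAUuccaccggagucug
mmu-miR-205-3p: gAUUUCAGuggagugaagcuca
mmu-miR-221-5p: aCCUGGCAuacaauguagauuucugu
mmu-miR-221-3p: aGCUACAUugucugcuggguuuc
mmu-miR-708-5p: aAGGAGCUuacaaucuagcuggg
mmu-miR-708-3p: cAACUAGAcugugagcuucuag

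Mir205, a microRNA of stratified and basal epithelia known to restrain Zeb1, read 4.46 and 4.30 on the parental arrays and 6.27 and 6.74 on the BORG arrays. It rose by 2.13 (SE 0.18, adjusted p = 0.00286 from limma), and Zeb1 rose in the same cells. Mir221, known to act on Cdkn1b, read 4.48 and 4.16 against 6.10 and 6.18 and rose by 1.82 (SE 0.16, adjusted p = 0.00314 from limma). The groups were well apart in both. Mir222, its neighbour on the X chromosome, read 4.16 and 4.36 against 5.49 and 4.87, higher on both BORG arrays without passing the test (adjusted p = 0.0737 from limma). Mir125b-1 rose by 1.46, Mir29a by 1.08, Mir31 by 1.01, and the neighbours Mir23a and Mir27a by 0.62 and 0.71. Mir708 read 4.94 and 4.65 in parental and 3.78 and 3.68 in BORG cells and fell by 1.07 (SE 0.15, adjusted p = 0.0134 from limma). It lies inside Tenm4 on the same strand, and Tenm4 fell as well. Of the 18 microRNA genes past the test, 8 lie inside another measured gene, and in 3 of these the host also passed, in the same direction: Tenm4 for Mir708, Anxa2 for Mir3109 and Samd12 for Mir28c. Many other hosts passed the test while the microRNA gene inside them did not, such as Slit2 with Mir218-1 and Srebf2 with Mir33. Mir106b is another example. It lies inside Mcm7 on the same strand, and read 5.92 and 5.73 against 5.46 and 5.15 without passing the test, while Mcm7 fell. Without either parental array 2 microRNA genes rose and 0 fell, and without BORG replicate 1, 3 rose and 1 fell.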

How the data were processed

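RNA of 6 arrays in 3 groups was processed as follows. Normalization of the probe intensities was done by the authors in Affymetrix Expression Console, and they deposited log2 values, 1 for each transcript cluster on each array. Transcriptome Analysis Console is also named in the submitters' notes. The sources used here give neither versions nor the method of summarization. Values ran from 1.92 to 13.74. Without detection values, how far a signal stood above background is unknown.

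Of 41345 clusters, 23521 had 1 platform symbol, 1820 had several and 16004 had none, and only the first kind was used. Of 22180 genes, 21994 had an Entrez ID in the RefSeq gene table. Group means were fitted over all 6 arrays with lmFit and eBayes of limma 3.58.1 in R 4.3.3. The fit left 3 residual degrees of freedom, to which moderation added 3.04, and p-values were adjusted by Benjamini-Hochberg over all clusters. SE is the moderated standard error of this fit. The fit was tested on simulated data. The 75 gene lists were written by hand, and the members and lists were chosen with earlier results of these data known. Genes named were the 15 largest rises and falls past the test with no overlap between arrays (established symbols only), the leading members of each list, members that carry a step of their list, and genes that the study assayed. Of the genes that the study assayed, Gadd45a lay in a cluster with several symbols and was not used. Values of Chmp2a and Zbtb45 are not given here. Lists are described by counts and medians. Promoter and mature microRNA sequences came from RefSeq (GRCm38.p6).

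The counts over all genes, of each list and of the microRNA genes were computed again with the replicate number as a block, with the 4 compared arrays alone, with a trended variance, after quantile normalization or median centring, over bright clusters, with adjustment over 1 cluster per gene, with the mean of a gene's clusters, with the methods' t-test and without each array in turn. Replicate numbers did not pair the samples: the deviations of same-numbered arrays from their group means had correlations of -0.0415 to 0.0413.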

Additional observations from a re-analysis of the deposited data

How the results depend on the processing

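The counts of genes past the adjusted threshold (1276 higher, 876 lower) depended on how the spread was estimated. No call turned direction under any alternative. Those that altered only the spread or the adjustment kept each log2 change, so no turn could occur in them. With the 4 arrays of the compared groups alone, or without either BORG/sgTRIM28 array, 765 were higher and 353 lower. The replicate block, although the numbers did not pair the samples, gave 952 higher and 510 lower, and 1442 of 2152 calls were kept. With a variance trend 1368 were lower, over clusters above the median signal 1562 were lower, and with adjustment over 1 cluster per gene 1986 were higher and 1746 lower. After adjustment, the methods' t-test gave 0 genes in either direction (0 higher, 0 lower), with 4156 genes at an unadjusted p under 0.05. Median centring gave 1336 higher and 733 lower. Leaving out 1 array gave 269 to 1339 higher and 64 to 1074 lower, with the lone array of a group taken to vary like the other groups. Without parental replicate 1 or 2, 345 and 350 genes passed, against 808 and 2413 without BORG replicate 1 or 2. At 2-fold and an unadjusted p under 0.05, leaving out 1 array gave 542 to 830 higher and 167 to 438 lower, and the other alternatives stayed within 1.5 times of 655 and 242. The log2 change of Cdkn1a, not past the test, ran from -0.126 without BORG replicate 2 (adjusted p = 0.69 from limma) to 0.898 without BORG replicate 1. The causes were not tested. The number of arrays and the absence of detection values limit what can be said of dim genes.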
